A study of Rattus norvegicus with 192 samples.

Results

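Libraries of polyA RNA labelled as nucleus accumbens core came from rats of the outbred heterogeneous stock, and 11 of them held the transcripts of midbrain dopamine neurons at high levels and those of striatal medium spiny neurons at low levels. These 11, called group A, were chosen as the libraries with Th at 100 CPM or more, where CPM is the expected count of a gene scaled to a library total of 1000000 and Th encodes tyrosine hydroxylase. The comparison group, group B, held the 147 libraries with Drd1, the D1 dopamine receptor, at 100 CPM or more. The remaining library met neither condition and entered neither group. The labels list 192 libraries, of which 33 are noted as removed and were not analysed here, so the 11 are a small part of those left. All groups share the strain stock and the tissue label, and the labels state no treatment, sex, age, genotype or batch, so group A is defined by its RNA alone. The design text names 2 further regions of the same cohort, abbreviated PL and pVTA, whose libraries were not analysed here. By identifier format, group A held 10 libraries with an all-digit rat identifier, numbered 4, 34, 53, 54, 55, 56, 57, 58, 62 and 63 within that format, and 1 with an identifier starting with E21, numbered 70. The numbers follow the order of the identifiers within a format, so 53 to 58 are adjacent, as are 62 and 63. The labels do not say what that order stands for. No identifier occurs in 2 libraries, so each library stands for 1 rat.

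The values of Th and Drd1 chose the groups, so neither is a result. Th was at 630 CPM or above in group A and at 10.7 or below elsewhere, and Drd1 was at 154 CPM or above in group B, 20.0 in the library of neither group and at most 7.77 in group A. No library lay near either threshold. Every other gene was measured in the same libraries, so differences between the groups only describe how far they lie apart. No p is printed for the difference of a gene between them, and limma's adjusted p enters below only in the definition of a call.

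Dopamine neurons of the ventral midbrain make dopamine from tyrosine, load it into vesicles and take it back up at their terminals, many of which lie in the nucleus accumbens. Their cell bodies, and hence most of their transcripts, lie in the substantia nigra and ventral tegmental area among GABA, glutamate and serotonin neurons of the brainstem. The accumbens itself consists mostly of medium spiny neurons, GABA cells of telencephalic origin that carry dopamine receptors, contain DARPP-32 and depend on forebrain transcription factors.

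The upstream sequences of 4 genes are shown. They are Th, whose level chose group A, and genes whose transcripts were present in group A and close to absent in group B or much lower there. Each run is the 250 bases before the RefSeq start in the rat assembly GRCr8, in the direction of transcription, and of the 15427 genes compared below 12615 had such a sequence. Capitals mark matches, on either strand, to the cyclic AMP response element TGACGTCA or to the bicoid-type homeodomain motif TAATCC, read as GGATTA on the other strand. Th lies on the minus strand and its run covers chr1:207508219-207508468. For Slc18a2, the vesicular monoamine transporter, the run covers chr1:268399771-268400020 on the plus strand. Slc6a3, the dopamine transporter, is on the minus strand at chr1:31578963-31579212. En1, engrailed 1, a transcription factor that dopamine neurons keep throughout life, is on the plus strand at chr13:34303434-34303683.
Th: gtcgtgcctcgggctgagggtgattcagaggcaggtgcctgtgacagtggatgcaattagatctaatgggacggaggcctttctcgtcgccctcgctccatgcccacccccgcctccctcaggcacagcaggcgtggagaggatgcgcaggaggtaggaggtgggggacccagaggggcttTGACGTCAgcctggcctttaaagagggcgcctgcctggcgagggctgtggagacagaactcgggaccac
Slc18a2: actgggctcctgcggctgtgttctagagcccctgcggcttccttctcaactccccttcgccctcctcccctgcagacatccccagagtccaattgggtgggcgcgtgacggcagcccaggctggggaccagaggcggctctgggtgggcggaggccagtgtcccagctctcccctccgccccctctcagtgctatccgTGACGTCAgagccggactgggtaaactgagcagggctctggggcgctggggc
Slc6a3: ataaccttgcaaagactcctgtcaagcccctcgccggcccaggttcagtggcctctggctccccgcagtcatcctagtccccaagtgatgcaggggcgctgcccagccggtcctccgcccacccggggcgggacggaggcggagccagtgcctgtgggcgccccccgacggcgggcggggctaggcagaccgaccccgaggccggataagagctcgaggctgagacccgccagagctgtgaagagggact
En1: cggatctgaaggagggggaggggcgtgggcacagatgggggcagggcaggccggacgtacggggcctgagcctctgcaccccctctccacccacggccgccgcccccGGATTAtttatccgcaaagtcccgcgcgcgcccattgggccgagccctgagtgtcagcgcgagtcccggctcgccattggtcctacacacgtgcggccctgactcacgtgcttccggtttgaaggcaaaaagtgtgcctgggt
The response element began 69 bases before the RefSeq start of Th and 52 bases before that of Slc18a2, and the homeodomain motif 143 bases before that of En1. The Slc6a3 run held neither of them, nor the Nr4a motif AAAGGTCA or the forkhead motif TGTTTAC, which were also searched on both strands. For Slc6a3 and En1 the gene position in the deposited table equalled the RefSeq start, while for Th it lay 58 and for Slc18a2 206 bases away, so those runs may belong to another start than the one the table uses. TGACGTCA occurred in 2.70% of the 12615 sequences, in 2.13% of the 845 for genes called higher in group A and in 1.99% of the 854 for genes called lower, by the definition of a call given below. TAATCC occurred in 4.95%, 5.44% and 4.45% of the same sets, AAAGGTCA in 0.80%, 0.95% and 0.47%, and TGTTTAC in 2.03%, 1.30% and 2.11%. All shares in the called sets lay within 1 percentage point of those of all genes, a wide margin for motifs this rare. AAAGGTCA was found in 8 sequences of genes called higher and 4 of genes called lower, and TGTTTAC in 11 and 18. The motifs were chosen after the levels of the genes were known, and a match describes letters only.

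The label of the 11 libraries went against their markers. Slc6a3 lay at 236 to 1088 CPM (median 824) in group A and at 0 to 2.98 CPM (median 0.0423) in group B, a log2 difference of 9.22 (SE 0.095). En1 lay at 77.7 to 202 CPM (median 151) against 0 to 0.829 CPM (median 0.0977). Ret, the receptor tyrosine kinase for GDNF-family ligands, lay at 291 to 626 CPM (median 533) against 0.896 to 6.6 CPM (median 3.71). No library of group B reached the lowest library of group A in any of these 3 genes. Slc6a3 and En1 averaged under 1 CPM in group B and entered the comparison below only through group A. Their direction was thereby fixed, so their levels are a description. Of the 15427 genes compared, 3.86% lay higher in group A without overlap. The markers of the labelled tissue showed the reverse: Ppp1r1b, which encodes DARPP-32, was at 63.5 to 138 CPM (median 87.9) in group A and 998 to 2989 CPM (median 1992) in group B. Adora2a, the adenosine receptor of indirect-pathway medium spiny neurons, was at 3.45 to 11.1 CPM (median 5.19) against 161 to 472 CPM (median 342). Dlx6, a homeodomain factor of forebrain GABA neurons, was at 0 to 0.798 CPM (median 0.15) against 18.8 to 49.7 CPM (median 36.7), so that every library of group A held less than 1 CPM. The midbrain markers were thus high in all 11 libraries, and transcripts of the labelled tissue were much lower than in group B but not absent. In bulk RNA of this kind, fewer cells of a type and less RNA per cell cannot be told apart.

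**Figure D1:**
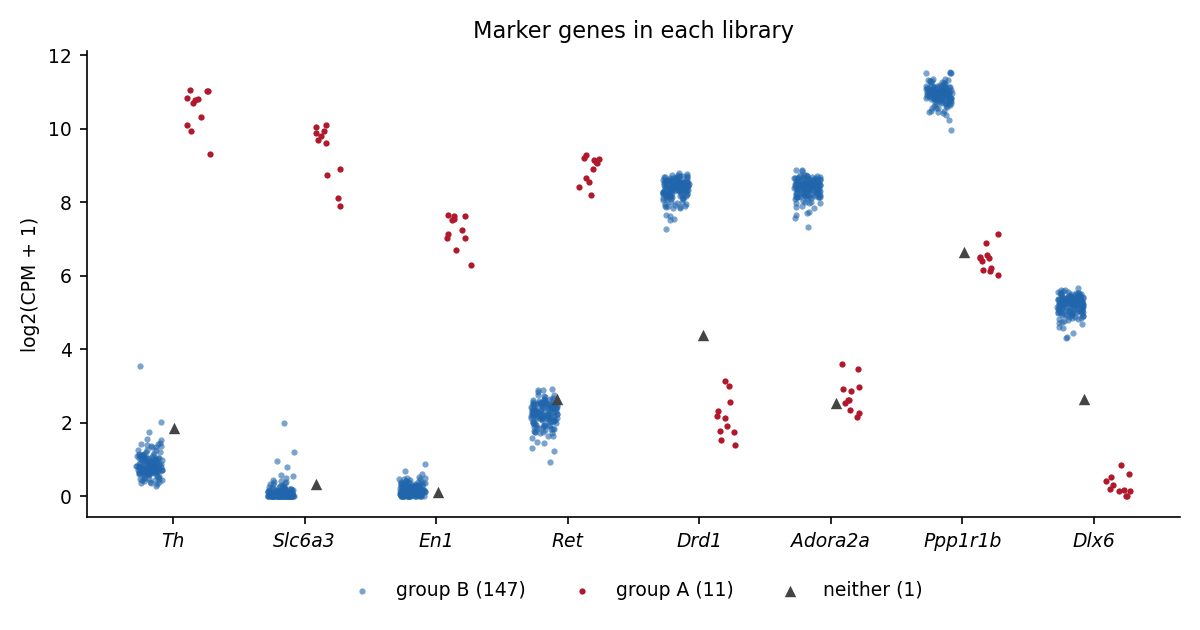
Level of 8 genes as log2(CPM + 1) in each library, with group A in red, group B in blue and the library of neither group as a triangle. Th and Drd1 chose the groups; Slc6a3, En1 and Ret separate them the same way as Th, and Adora2a, Ppp1r1b and Dlx6 the same way as Drd1; the library of neither group had Drd1 at 20.0 CPM and Slc6a3 at 0.252 CPM.

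The depth of the 11 libraries lay within the range of the rest. Total expected counts were 24.5 ± 4.38 M (M standing for 1000000; SD, n = 11) in group A and 24.8 ± 7.37 M (SD, n = 147) in group B, a difference of -0.263 M (permutation test, two-sided, p = 0.975). Within the all-digit format the difference was -3.44 M (permutation test, two-sided, p = 0.225). Group A had more genes at 1 CPM or more, 15554 ± 193 against 15252 ± 180 (SD, n = 11 and 147), a difference of 302 genes, and of 272 genes within the all-digit format. The 11 resembled each other more than they resembled group B. Pearson correlations of log2(CPM + 1) were taken over all 38354 deposited genes, low ones included. They ran from 0.987 to 0.996 among the 55 pairs within group A, from 0.966 to 0.997 within group B and from 0.946 to 0.976 between the groups. The 11 libraries were spread unevenly over identifier formats, with 10 of 66 all-digit libraries (15.2%) and 1 of 77 E21 libraries (1.30%) in group A (Fisher's exact test, two-sided, p = 0.00278, odds ratio 13.6). With the identifiers that the submitters had corrected to the E21 format counted in, the share was 1 of 89 (Fisher's exact test, two-sided, p = 0.000918). Whether the format marks a batch is not stated in the labels, and its part in the results was not tested. Fisher's test counts each library as independent and takes no account of the adjacent identifiers in group A.

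Across the 15427 genes whose mean over all libraries reached 1 CPM, group A differed from group B by a factor of at least 2 in a large share of the transcriptome. A gene is called here where the log2 difference, on the log2(CPM + 1) scale, is at least 1 in size and limma's adjusted p is under 0.05. By that definition 2192 genes (14.2%) were called, 1102 (7.14%) higher and 1090 (7.07%) lower in group A. Ranges that did not overlap at all, with a log2 difference of at least 1, were found for 1347 genes (8.73%), 596 higher (3.86%) and 751 lower (4.87%). All these counts include Th on the higher side and Drd1 on the lower side, which chose the groups. The median log2 difference over all genes was 0.02. Of the genes compared, 127, Th among them, had a mean under 1 CPM in group B. They passed the filter only through their level in group A, which fixes their direction. Among the other 15300 genes 1005 were called higher. Because the pseudocount of 1 weighs on low levels, the difference of a gene near 0 in the lower group understates its fold change.

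**Figure D2:**
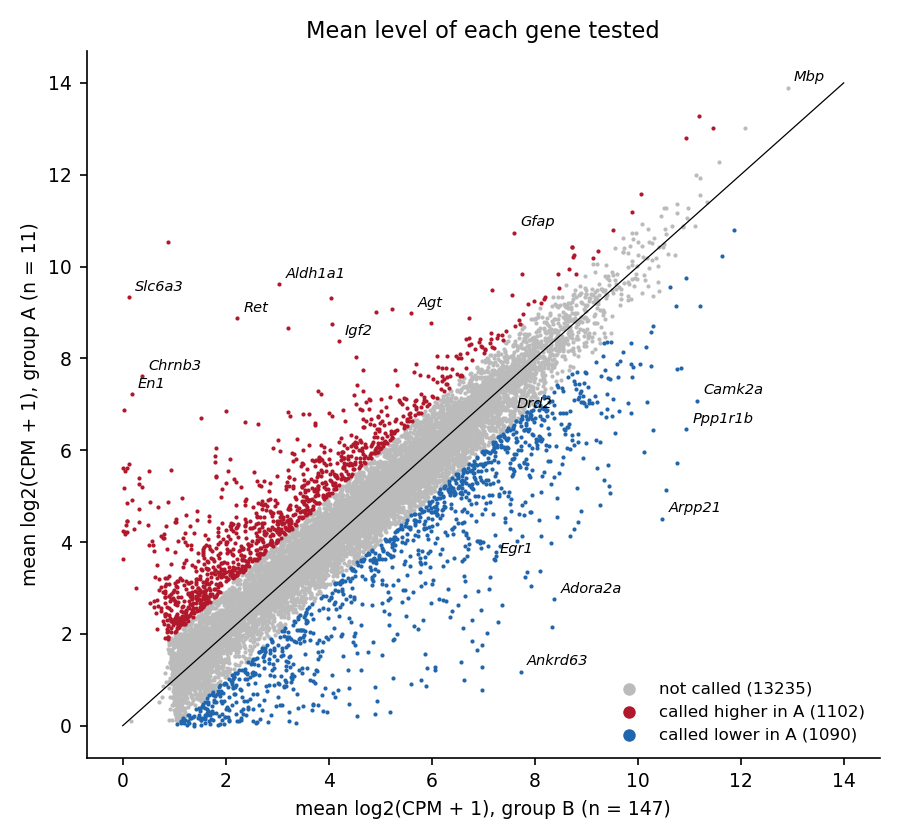
Mean log2(CPM + 1) of each of the 15427 genes in group B (horizontal) and group A (vertical), with the line of equality. Red points are the 1102 genes called higher and blue points the 1090 called lower in group A; Slc6a3, Chrnb3 and En1 lie at the far left and Ankrd63 and Adora2a at the bottom.

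Apart from Th, the 20 largest differences upward were led by genes of dopamine neurons. After Slc6a3 came Chrnb3 (7.23), En1 (7.04), Chrna6 (6.86), Ret (6.66) and Aldh1a1 (6.58). They were followed by Pax7, Ebf3, Cnpy1, En2, Ddc, Slc18a2, Ntsr1, Lmx1b, Pax5, Gch1, Slc39a4, Spp1, Mab21l1 and Foxa1, the last at 4.77. In all 20 the lowest library of group A lay above the highest of group B. Of the 20, only Ret, Aldh1a1, Ddc, Slc18a2, Ntsr1 and Spp1 had a mean of 1 CPM or more in group B. The others passed the filter only through group A, which fixed their direction, so their separation is a description of levels. Not all of them belong to dopamine cells: Pax7 and Pax5 are paired-box factors of the dorsal midbrain and of the midbrain-hindbrain border, Cnpy1 is a canopy protein known from that border, and Spp1 encodes osteopontin. Pax5 was at 21.8 to 76.4 CPM (median 40.6) in group A and 0 to 0.879 CPM (median 0.238) in group B, and Cnpy1 at 40.9 to 59.9 CPM (median 47.6) against 0 to 0.667 CPM (median 0.035).

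Dopamine synthesis, storage and uptake genes formed a list of 12, of which 6 were called higher and 0 lower. Slc6a3 and Gch1 passed the filter only through group A, and of the other 10 genes 4 were called higher. Ddc, aromatic amino acid decarboxylase, which makes dopamine from L-DOPA, lay at 142 to 687 CPM (median 437) in group A and 4.88 to 13.2 CPM (median 8.2) in group B, a log2 difference of 5.44 (SE 0.11). Slc18a2, which loads monoamines into vesicles, was at 277 to 887 CPM (median 751) against 10.6 to 23.8 CPM (median 15.4). Gch1 makes the precursor of tetrahydrobiopterin, the cofactor that tyrosine hydroxylase needs, and lay at 21.5 to 66.5 CPM (median 48.8) against 0 to 1.14 CPM (median 0.415). Pcbd1, which recycles that cofactor, differed by 2.44, and Slc10a4, a vesicular transporter of monoamine and cholinergic neurons, by 3.09. The widely expressed members were not called. Among these, Pts and Spr, the later enzymes of cofactor synthesis, differed by 0.68 and 0.64, Qdpr, the reductase that restores it, by 0.49, and the degrading enzymes Maoa and Maob by 0.58 and 0.18.

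Among 12 transcription factors that specify or maintain midbrain dopamine neurons, 10 had a mean under 1 CPM in group B and passed the filter only through group A, so their direction was fixed by it and they are described by their levels. The other 2 were Nr4a2 and Sox6. Pitx3, a homeodomain factor of dopamine neurons, lay at 5.39 to 32.1 CPM (median 22.2) in group A and never above 0.28 CPM in group B. Lmx1b and Lmx1a, LIM homeodomain factors of the floor plate lineage, lay at 18.8 to 53.6 CPM (median 39.7) and 8.94 to 36.2 CPM (median 23.4) in group A, and the highest group B values were 0.445 and 0.353 CPM. Foxa1 and Foxa2, forkhead factors of the same lineage, differed by 4.77 and 4.23. En2, the partner of En1, lay at 38.4 to 57.9 CPM (median 44.9), a narrow range over the 11 libraries. Nr4a2, the nuclear receptor Nurr1, was called at 2.06 (SE 0.38) but its ranges overlapped, 24 to 90.0 CPM (median 66.1) against 1.32 to 58.7 CPM (median 13.5). Sox6 was not called, with 21.3 to 43 CPM (median 28.7) against 12 to 37.2 CPM (median 26.8); it marks a subset of dopamine neurons and also forebrain interneurons.

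Most receptors and channels of dopamine neurons were higher too. In a list of 13, Gucy2c was below the mean of 1 CPM, and 11 of the 12 others were called higher, 9 of 10 without Chrna6 and Chrnb3, which passed the filter only through group A. Chrna6 and Chrnb3, nicotinic acetylcholine receptor subunits that dopamine neurons combine, lay at 46.8 to 180.3 CPM (median 140.4) and 62 to 379 CPM (median 217) in group A, with highest group B values of 0.667 and 2.53 CPM. The subunits Chrna4 and Chrna5 differed by 3.50 and 3.96. Ntsr1, the high-affinity neurotensin receptor, lay at 41.3 to 157 CPM (median 118) against 0.39 to 6.67 CPM (median 1.86), and Tacr3, the neurokinin B receptor, at 40.7 to 74.5 CPM (median 57) against 0.231 to 6.44 CPM (median 2.7). Gfra1, the co-receptor through which Ret binds GDNF, was at 69.2 to 164 CPM (median 136) against 10.0 to 39.2 CPM (median 18.5). Kcnj6, the potassium channel GIRK2 that D2 autoreceptors open, was called at 2.85 with overlapping ranges. The remaining gene was Drd2, the D2 receptor, found on dopamine neurons and on indirect-pathway medium spiny neurons alike: it lay at 56.3 to 162 CPM (median 122) in group A and 91.6 to 249 CPM (median 186) in group B, was not called at -0.74 (SE 0.082), and its ranges overlapped.

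Peptides and other markers of dopamine cells were called higher in 9 of 12 cases and lower in 1, and higher in 8 of 11 without Grp, which passed the filter only through group A. Aldh1a1, a retinaldehyde dehydrogenase of ventral nigral dopamine neurons, lay at 272 to 1162 CPM (median 889) against 3.62 to 15.3 CPM (median 7.02). Calb2, the calcium-binding protein calretinin, was at 295 to 550.4 CPM (median 431) against 7.82 to 29.6 CPM (median 15.4), and Dlk1, a delta-like membrane protein, at 233 to 697 CPM (median 640.3) against 8.12 to 81.8 CPM (median 30.5). Cck, cholecystokinin, overlapped between the groups at 98.4 to 359 CPM (median 260.1) and 5.03 to 348 CPM (median 59.1) and was called at 2.19. Lpl, lipoprotein lipase, was the member called lower, at -1.55, and Calb1, calbindin, present in ventral tegmental and in medium spiny neurons, was not called at -0.79. Genes described as biased to the substantia nigra or to the ventral tegmental area were both represented. Of 7 nigra-biased genes that passed the filter, 4 were called higher (Aldh1a1, Ndnf, Anxa1 and Kcns3) and 0 lower, and of 10 tegmental-biased genes, 7 were called higher and 1 lower, 5 of 8 being higher without Otx2 and Grp, which had a mean under 1 CPM in group B. Ndnf, a secreted neuron-derived factor, differed by 3.27 and Anxa1, annexin A1, by 2.82. Among the tegmental-biased genes, Otx2, a homeodomain factor, lay at 6.79 to 13.3 CPM (median 10.8) against 0.0409 to 2.03 CPM (median 0.55), Adcyap1, the peptide PACAP, at 19.4 to 62.3 CPM (median 43.8) against 0.421 to 14.8 CPM (median 2.25), and Grp, gastrin-releasing peptide, was called at 3.29 with overlapping ranges. The nigra and tegmental lists share no gene with each other, and which nucleus gave more of the RNA was not tested.

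Other midbrain neurons showed beside the dopamine genes. Slc17a6, the vesicular glutamate transporter VGLUT2, lay at 39 to 195 CPM (median 92.4) in group A and 0.244 to 18.8 CPM (median 5.17) in group B, a log2 difference of 4.25 (SE 0.29). Of 8 genes of the midbrain and brainstem glutamate list 4 passed the filter. Pax5 and Ebf2 did so only through group A, where Ebf2, a helix-loop-helix factor, lay at 11.7 to 34.3 CPM (median 19.9) against 0 to 0.838 CPM (median 0.218) in group B. Tcf7l2, a Wnt pathway factor, was called at 1.04 with overlapping ranges, 7.94 to 63 CPM (median 28.9) against 6.33 to 17 CPM (median 10.2). Its call did not hold without all-digit libraries 4, 34, 54, 58 or 63, at 0.89, 0.97, 0.999, 0.997 and 0.90, nor under quantile normalization, at 0.99, and without 4 and 63 together the difference was 0.72. The other 4 genes of the list, Pou4f1, Pou4f2, Barhl1 and Shox2, fell below the mean of 1 CPM over all libraries, which removes genes confined to these 11 libraries unless they are abundant there. Pou4f1, the factor Brn3a of red nucleus and habenula neurons, lay at 5.44 to 19.9 CPM (median 12.6) in group A and at 0.365 CPM or less in group B. Pou4f2 was at 2.03 to 10.0 CPM (median 6.28) against at most 0.0594 CPM. Without the filter, 1320 genes were called higher and 1089 lower.

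GABA neuron genes did not distinguish the groups in a simple way. Among 9 genes of midbrain GABA neurons 3 were called higher and 1 lower. Gad1, glutamate decarboxylase, lay at 77.3 to 644 CPM (median 360.1) in group A and 333 to 636 CPM (median 528) in group B and was not called at -0.72 (SE 0.087). Slc32a1, the vesicular GABA transporter, was not called either, at -0.48, while Gad2, the second decarboxylase gene, was called lower at -1.44 with overlapping ranges. The factors Tal1 and Zfpm2, which mark brainstem GABA neurons, were called higher at 1.97 and 1.88, together with Pvalb, parvalbumin, at 40.4 to 117 CPM (median 60.5) against 4.3 to 39.4 CPM (median 14.3). Gata3 and Sox14, further factors of these cells, were below the filter, with Gata3 at 3.98 to 18.4 CPM (median 9.41) against at most 0.441 CPM and Sox14 at 1.79 to 15.3 CPM (median 8.3) against at most 0.0889 CPM.

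Serotonin genes were present in some of the 11 libraries. Of 4 that passed the filter, 2 were called higher, Htr1a, the serotonin 1A autoreceptor, at 2.57, and Tph2, the enzyme of neuronal serotonin synthesis, at 1.25 (SE 0.17). Tph2 ranged from 0.545 to 57.5 CPM in group A around a median of 5.18, against 0.518 to 3.92 CPM (median 1.98) in group B. Its call rested on single libraries: without all-digit library 4 the difference was 0.95, and without library 63 it was 0.95 as well. Noradrenaline genes were not detected at an interpretable level: Dbh, dopamine beta-hydroxylase, was at most 0.055 CPM in group A, and Slc6a2 and Phox2a stayed at or below 0.189 CPM. Cholinergic genes were lower, with 5 of 6 called, among them Chat, choline acetyltransferase, at 0.568 to 1.74 CPM (median 1.14) against 7.56 to 25.5 CPM (median 16.5), Slc5a7, the choline transporter, at -2.37, and Isl1, a factor of striatal cholinergic neurons, at -2.73. The member called higher was Prph, the intermediate filament peripherin, at 20.7 to 114 CPM (median 44) against 0.248 to 12.9 CPM (median 3.59). Of 10 hypothalamic and mammillary genes 9 were below the filter, including the peptides Hcrt, Pmch and Oxt, each at most 1.94 CPM in group A. Hdc, histidine decarboxylase, reached 13.7 CPM in all-digit library 56 and at most 3.73 in the other 10.

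Neighbouring regions were represented unevenly. Of 4 interpeduncular and habenular genes that passed the filter 3 were called higher and 1 lower: Chrna3 and Chrnb4, nicotinic subunits of the habenula and interpeduncular nucleus, lay at 11.9 to 36.9 CPM (median 21.4) and 4.29 to 34.2 CPM (median 14.9) in group A, with highest group B values of 2.19 and 2.65 CPM, and the gene called lower was Sst, also a peptide of striatal interneurons. The third gene called higher was Nwd2, a WD repeat protein gene, at 13.5 to 28.1 CPM (median 24.6) against 1.7 to 34.1 CPM (median 8.03), a difference of 1.27 that fell under the size limit within the all-digit format, at 0.93. Gpr151, a receptor of habenular neurons themselves, was at most 0.471 CPM in group A. Of 5 thalamic and subthalamic genes 1 was called higher, Foxa1, which also stands among the dopamine factors and passed the filter only through group A, and 0 lower by limma at the same limits. None of 3 cerebellar genes was called by limma, and Gabra6 and Pcp2, which mark granule and Purkinje cells, were at most 0.078 and 0.152 CPM in group A. Of all genes compared 14.2% were called, so few calls in lists this short do not set these regions apart.

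Genes of glycine transmission, an inhibitory system common in the brainstem, were called higher in 3 of 7 cases and lower in 0, Glra1 passing the filter only through group A. Glra1, the adult receptor alpha subunit, lay at 7.27 to 44.8 CPM (median 19.3) against 0 to 1.7 CPM (median 0.403), Glra3, another alpha subunit, at 16.5 to 33.3 CPM (median 25.5) against 2.72 to 13.6 CPM (median 7.47), and Slc6a9, the glial glycine transporter, at 257 to 332 CPM (median 295) against 84.7 to 185 CPM (median 131). Slc6a5, the transporter of glycine neurons themselves, was not called, at 4.56 to 13.9 CPM (median 8.37) against 2.68 to 15.5 CPM (median 6.42). The receptor subunits Glra2 and Glrb were not called either, at 0.17 and 0.45. Gphn, the scaffold gephyrin that anchors glycine and GABA-A receptors, had a negative difference of -0.88, under the size limit, with at most 59.7 CPM in group A and at least 74.6 in group B.

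Downward, the largest differences belonged to medium spiny neurons. All 17 genes of the list shared by direct and indirect pathway cells were called lower, all 17 without overlap, at a median of -3.99. Arpp21, a cyclic AMP regulated phosphoprotein of striatal neurons, lay at 7.14 to 53.9 CPM (median 18.8) in group A and 801 to 1988 CPM (median 1449) in group B, a log2 difference of -5.97 (SE 0.093). Gng7, the G protein gamma subunit that couples D1 and adenosine receptors to adenylyl cyclase in striatum, was at 36.4 to 83.7 CPM (median 47.2) against 842 to 2599 CPM (median 1788). The phosphodiesterase Pde10a was at 29.5 to 52.9 CPM (median 40.5) against 186 to 1045 CPM (median 682) and Rgs9, the regulator of G protein signalling enriched in striatum, at 6.54 to 15.9 CPM (median 9.47) against 127 to 320.5 CPM (median 238). Ankrd63, an ankyrin repeat protein gene, lay at 0.262 to 4.69 CPM (median 1.1) against 119.8 to 297 CPM (median 213), a difference of -6.55 (SE 0.094). That was the largest downward difference among genes averaging 10 CPM or more in group B, with symbols made from a locus number left out. The levels in group A were low but not 0: summed over the 17 genes, the highest library of group A had 1017 CPM and the lowest of group B 6454 CPM. Outside this list, Scn4b, the sodium channel beta subunit of medium spiny neurons, spread widely in group A, with a median of 40.1 CPM and 226 CPM in E21 library 70, still below the 272 CPM of the lowest library of group B.

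Direct and indirect pathway genes were lower together. In the direct pathway list 5 of 7 were called lower and 1 higher. Pdyn, prodynorphin, lay at 10.2 to 34.7 CPM (median 14.9) against 161 to 569 CPM (median 426), Tac1, the substance P precursor, at 15.4 to 42.7 CPM (median 22.9) against 138 to 414 CPM (median 242), and Chrm4, the muscarinic M4 receptor, differed by -3.98; Eya1, a developmental transcriptional coactivator, was the member called higher, at 1.14. In the indirect pathway list 5 of 7 were called lower and 0 higher. Penk, the enkephalin precursor, lay at 37.4 to 146 CPM (median 99.8) against 509 to 1912 CPM (median 1273), and the orphan receptors Gpr6 and Gpr52 differed by -4.49 and -3.12. Of 10 accumbens-biased genes 4 were called lower and 1 higher, and both Crym, a thyroid hormone binding protein, and Wfs1, wolframin, were lower, at -3.60 and -4.41. Cartpt, the CART peptide precursor of accumbens neurons, was at 1.23 to 8.36 CPM (median 1.89) against 67.8 to 349 CPM (median 132).

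Transcription factors of the telencephalon were called lower in 11 of the 15 cases that passed the filter, with a median of -3.30. Dlx5, a homeodomain factor related to Dlx6, never exceeded 0.715 CPM in group A and was at least 13.1 CPM in group B. Lhx8, a factor of basal forebrain cholinergic neurons, was at most 0.182 CPM in group A against 3.25 to 19.3 CPM (median 9.69). Bcl11b, which encodes CTIP2, lay at 4.16 to 11.5 CPM (median 6.78) against 123 to 378 CPM (median 249.8), and Six3, a forebrain homeodomain factor, at 0.426 to 4.93 CPM (median 1.31) against 23.8 to 141 CPM (median 67). Meis2, a homeodomain factor of striatal precursors that also occurs in the midbrain, was called at -3.49 with 6.2 to 58.9 CPM (median 35.4) in group A. Ikzf1, Ebf1, Zfp503 and Satb1 were the 4 not called. Striatal interneuron peptides were lower too, with Sst, somatostatin, at 8.19 to 64.7 CPM (median 39.1) against 126 to 802 CPM (median 216) and Npy, neuropeptide Y, at most 21.3 CPM in group A and at least 59.2 in group B, while Nos1, the nitric oxide synthase of the same interneurons, was not called at 0.31.

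Genes of cortical glutamate neurons were lower in part. Of 10 such genes 6 were called lower and 0 higher, and 1 of the 6, Camk2a, the alpha subunit of calcium/calmodulin kinase II, did so without overlap, at 87.4 to 219.5 CPM (median 134) against 1535 to 3164 CPM (median 2248). Slc17a7, the vesicular glutamate transporter VGLUT1, had a median of 5.78 CPM in group A and 197 CPM in group B, and its ranges overlapped because group B itself ran from 1.92 to 1148 CPM. All-digit library 56 had the highest group A value, 92.9 CPM, and also the highest Neurod2, a cortical and granule cell factor, at 7.9 CPM. Barhl1, a member of the cerebellar and the brainstem glutamate lists, was highest in library 56 too, at 6.79 CPM against at most 0.578 CPM in group B. Tbr1, a deep-layer cortical factor, stayed at or below 1.27 CPM in group A and was at 0.533 CPM in library 56. Which region gave these transcripts in library 56 was not tested. Of the 4 genes not called, Cux2, Neurod6 and Rorb, factors of cortical layers, had positive differences of 0.82, 0.91 and 0.19, with Cux2 at 42.1 to 93.2 CPM (median 64.7) against 17.2 to 68.6 CPM (median 39.1), and Nptx1, a neuronal pentraxin, a negative one of -0.48.

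**Figure D3:**
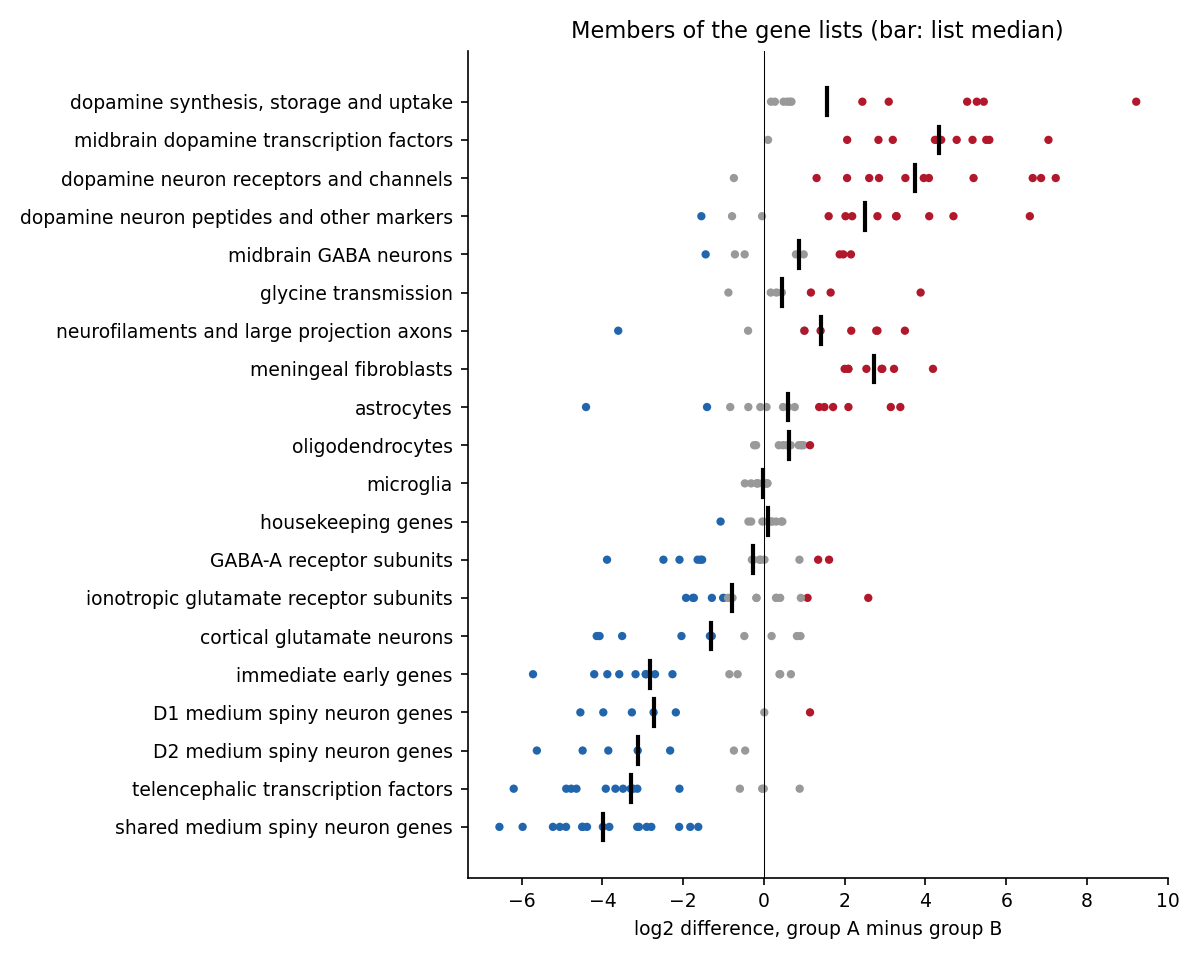
Log2 difference, group A minus group B, of each tested member of 20 gene lists, with red for genes called higher, blue for genes called lower, grey for the others and a black bar at the list median. Dopamine lists lie to the right, with 10 of the 12 transcription factors shown only because of their level in group A, the shared medium spiny neuron list to the left (median -3.99), and the oligodendrocyte, microglia and housekeeping lists nearer to 0 (medians 0.63, -0.03 and 0.11).

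Activity-regulated genes were lower in group A. Among 14 immediate early genes 9 were called lower and 0 higher, all 9 without overlap, with a median of -2.81. Egr3 lay at 0.597 to 3.92 CPM (median 1.17) in group A and 67.2 to 197 CPM (median 129) in group B, Egr1 at 6.33 to 15.9 CPM (median 12.7) against 85.3 to 274 CPM (median 142), and Egr4 differed by -4.20; all 3 are zinc finger factors. Arc, a synaptic capsid-like protein, was at 3.77 to 8.38 CPM (median 4.73) against 26.1 to 213 CPM (median 96.5), and Nr4a1, the nuclear receptor Nur77, differed by -2.92. Fos, the best known of the family, was not called: it lay at 3.92 to 9.13 CPM (median 5.74) in group A and 3.25 to 31.2 CPM (median 11.5) in group B, a difference of -0.85 (SE 0.2); under quantile normalization it was called lower at -1.04. Jun, Ier2 and Btg2, also not called, differed by 0.67, 0.40 and 0.39. The labels give no time or manner of killing.

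A list of 14 striatal signalling and synaptic genes outside the marker lists had 12 called lower and 1 higher. Ptk2b, the calcium-dependent kinase PYK2, lay at 19.5 to 37.1 CPM (median 25.6) against 446 to 799 CPM (median 621), and Pde7b, a cyclic AMP phosphodiesterase, at 14.4 to 19.4 CPM (median 16.6) against 119 to 307 CPM (median 219.6). The scaffolds Shank3 and Homer1 differed by -2.49 and -2.32. The gene called higher was Gnas, the stimulatory G protein alpha subunit, an imprinted gene, at 2058 to 2568 CPM (median 2388) against 658 to 1554 CPM (median 946), whereas its striatal relative Gnal, from another list, differed by -2.10.

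Receptor subunits differed in both directions. Of 14 GABA-A receptor subunits 6 were called lower and 2 higher, beside 7.07% and 7.14% of all genes compared. Gabrd, the delta subunit of extrasynaptic receptors, was lowest relative to group B at -3.88 (SE 0.076), with 1.44 to 8.3 CPM (median 4.73) against 51.8 to 116 CPM (median 81.6). Gabra4 and Gabra2, alpha subunits of striatal receptors, differed by -2.49 and -1.64. The 2 called higher were Gabre and Gabrq, the epsilon and theta subunits known from brainstem monoamine nuclei, at 1.34 and 1.61, both with overlapping ranges and low levels, 2.89 to 6.8 CPM (median 3.97) and 1.44 to 13.5 CPM (median 4.55) in group A; Gabrq passed the filter only through group A.

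Among 17 ionotropic glutamate receptor subunits, 5 were called lower and 2 higher, beside 7.07% and 7.14% of all genes compared. The NMDA receptor subunits split: Grin2d lay at 49.2 to 78.7 CPM (median 54.5) in group A and 4.33 to 17.9 CPM (median 9.27) in group B, a log2 difference of 2.58 (SE 0.095) without overlap, and Grin2b at 54.9 to 86.1 CPM (median 67) against 113 to 470.5 CPM (median 280.0), a difference of -1.93 (SE 0.14). Grin1, the obligatory subunit, was not called at -0.78. Gria1 and Gria2, the main AMPA receptor subunits, were called lower at -1.73 and -1.76, and Gria4 was not called at 0.32. Grik1, a kainate receptor subunit, was called higher at 1.08, but it missed the size limit without all-digit library 63, at 0.96, and within the all-digit format, at 0.95.

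**Figure D4:**
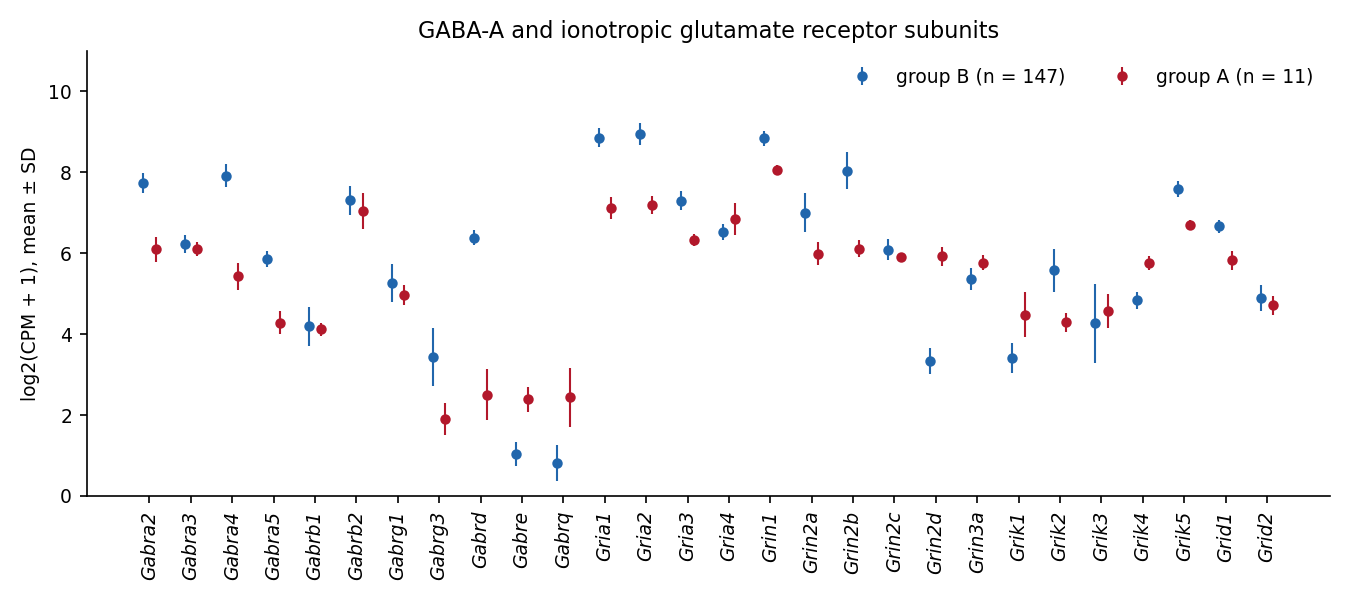
Mean level as log2(CPM + 1) with SD over the 147 libraries of group B (blue) and the 11 of group A (red), for most of the GABA-A and ionotropic glutamate receptor subunits that passed the filter. Gabrd, Gabra4 and Grin2b lie lower in group A and Grin2d higher; levels of different subunits are not comparable because CPM does not account for transcript length.

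Ion channel genes also differed in both directions, with 6 of 21 potassium, sodium and HCN channel genes called higher and 7 lower. The shares over all genes compared were 7.14% higher and 7.07% lower. Kcnj4, the inward rectifier Kir2.3 of medium spiny neurons, lay at 2.57 to 8.55 CPM (median 5.39) against 111 to 214 CPM (median 167), and Kcnip2, the auxiliary protein KChIP2, at 17.6 to 38.6 CPM (median 23.8) against 127 to 327 CPM (median 250.1). Hcn4, a pacemaker channel, was higher at 8.89 to 19.3 CPM (median 13.6) against 0.371 to 5.8 CPM (median 3.42), as was Scn9a, the sodium channel Nav1.7, at 12.2 to 28.2 CPM (median 19.2) against 1.5 to 9.08 CPM (median 5.16). Kcnc1 and Kcnc2, Kv3 channels of fast-firing neurons, were called higher at 1.17 and 1.84, the second with overlapping ranges. Of 9 neurofilament and large-axon genes 6 were called higher and 1 lower, the latter being Scn4b at -3.61, and Kcna1, a Kv1 channel, was not called at -0.39. Nefh, the heavy neurofilament subunit, lay at 233 to 1898 CPM (median 341) against 25.9 to 151 CPM (median 65.5) and Nefm, the medium one, at 238 to 1771 CPM (median 414) against 38 to 231 CPM (median 105). Nefl, the light subunit, reached 2476 CPM in E21 library 70 and was just under the size limit for a call at 1.00. Vamp1, the synaptobrevin of brainstem and motor terminals, differed by 1.40 without overlap.

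Peptide receptors also differed in both directions, with 5 of 18 called higher and 4 lower, beside 7.14% and 7.07% of all genes compared. Oprl1, the nociceptin receptor, lay at 66.6 to 109.9 CPM (median 96.1) against 15.1 to 45 CPM (median 29.3) and Hcrtr1, the orexin 1 receptor, at 4.97 to 12.8 CPM (median 7.34) against 0.119 to 5.02 CPM (median 0.99). Oprm1, Oprk1 and Oprd1, the mu, kappa and delta opioid receptors, were not called, at -0.24, -0.50 and -0.92. Cckbr, a cholecystokinin receptor, and Mc4r, a melanocortin receptor, were lower at -2.96 and -2.21. Below the filter, Cckar, the other cholecystokinin receptor, lay at 4.49 to 11.7 CPM (median 6.61) against at most 0.974 CPM and Ghsr, the ghrelin receptor, at 5.25 to 12.2 CPM (median 7.72) against at most 0.478 CPM, so their ranges did not overlap either.

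Oligodendrocyte and microglia genes were mostly not called, which held for most genes, as 14.2% of all genes compared were called in either direction. The counts below lie near that share and do not set these cell types apart. Of 12 oligodendrocyte genes 1 was called higher and 0 lower, and the median was 0.63. Mbp, myelin basic protein, lay at 12275 to 17009 CPM (median 15083) in group A and 4499 to 19356 CPM (median 7584) in group B, a difference of 0.98 (SE 0.12). It was not called, it passed within the all-digit format at 1.05 and without all-digit library 57 at 1.01, and under quantile normalization the difference turned to -0.35, so no direction is given for it. Ugt8, the enzyme of myelin galactolipid synthesis, was the member called, at 1.14. None of 7 oligodendrocyte precursor genes and none of 11 microglia genes was called by limma in either direction at this size limit, and Csf1r, the microglial growth factor receptor, differed by 0.04. Of 12 housekeeping genes 11 were not called, with a list median of 0.11; Ywhaz, a 14-3-3 protein, was lower at -1.07.

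Astrocyte genes split in both directions, 6 of 15 called higher and 2 lower, beside 7.14% and 7.07% of all genes compared. Gfap, the intermediate filament of fibrous astrocytes, lay at 804 to 3615 CPM (median 1881) in group A and 74.9 to 432 CPM (median 189) in group B, a log2 difference of 3.14 (SE 0.15). Agt, angiotensinogen, was at 410.4 to 585 CPM (median 496) against 22.9 to 157 CPM (median 44.4), and Slc6a11, the GABA transporter GAT-3, at 86.8 to 190.5 CPM (median 145) against 1.62 to 72.6 CPM (median 33.7). Aqp4 (the astrocyte water channel), Aldh1l1 (a folate enzyme) and Gjb6 (connexin 30) were called higher at 1.50, 1.71 and 1.37. In the opposite direction, Slc1a2, the glutamate transporter GLT-1, lay at 992 to 1371 CPM (median 1233) against 1802 to 5375 CPM (median 3228) and Lhx2, a forebrain homeodomain factor of astrocytes and progenitors, at 0.0415 to 1.04 CPM (median 0.436) against 15.8 to 53.5 CPM (median 28.4). General astrocyte genes such as Gja1 (connexin 43) and Sox9 differed by -0.09 and 0.07.

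Meningeal genes were higher as well. All 8 meningeal fibroblast genes were called higher, 1 of them without overlap, with a median of 2.73. Igf2, insulin-like growth factor 2, lay at 34.4 to 1152 CPM (median 444) in group A and 7.74 to 73.5 CPM (median 16.2) in group B, Col1a1, a fibrillar collagen, at 6.18 to 164 CPM (median 85.8) against 2.45 to 31.3 CPM (median 6.74), and Lum, the proteoglycan lumican, at 4.62 to 33.2 CPM (median 18.3) against 0.186 to 3.59 CPM (median 1.25). Summed over the 8 genes, group A libraries held 411 to 4062 CPM and group B libraries 140 to 881 CPM. Of 12 endothelial and mural genes 3 were called higher and 0 lower, none without overlap, with a median of 0.36. Over all genes compared, 7.14% were called higher and 3.86% lay higher without overlap. The 3 were Acta2 and Myh11, actin and myosin of vascular smooth muscle, at 2.67 and 2.86, and Vtn, vitronectin, at 1.27. Endothelial Cldn5, a tight junction protein, and Pecam1, an adhesion molecule, were not called at 0.49 and 0.41. Haemoglobin genes were called higher in 4 of 6 cases with overlapping ranges, led by Hba-a2 at 1.26, and since their reads can be shared between near-identical copies the single members are uncertain; the calls of Hba-a1, Hbb and Hbb-b1 were lost without single libraries, among them all-digit library 62 for all 3, at 0.98, 0.88 and 0.90. Ttr, transthyretin, the defining gene of choroid plexus, was at most 1.5 CPM in group A. The part of meningeal and vascular RNA in the other differences was not tested.

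The 11 libraries were not uniform, and the dopamine genes varied together. In group A, Slc6a3 was lowest in 4 libraries, at 236 CPM in all-digit library 63, 275 in 4, 430.2 in 56 and 481 in 58, and lay between 783 and 1088 CPM in the other 7. Relations with Slc6a3 were computed for 8 genes on the log2(CPM + 1) scale over the 11 libraries, with two-sided permutation p-values adjusted over the 8 by the Benjamini-Hochberg method. Since Th chose the libraries only by a threshold far below their levels, variation among them was not used in the choice. The genes share each library's scaling.

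Slc18a2 followed Slc6a3 most closely, with Pearson's r = 0.93 (permutation test, adjusted p = 0.002) and Spearman's rho = 0.90 (permutation test, adjusted p = 0.00304), and r = 0.97 without the 2 libraries farthest from the median of Slc6a3. En1 gave r = 0.82 (permutation test, adjusted p = 0.00848) and rho = 0.65 (permutation test, adjusted p = 0.0582), and r = 0.73 without those 2 libraries. Slc17a6, the glutamate transporter, also tracked it, with r = 0.83 (permutation test, adjusted p = 0.0036), rho = 0.68 (permutation test, adjusted p = 0.0494) and r = 0.62 without the 2. The serotonin gene Tph2 and the GABA gene Gad1 ran the other way. Tph2 gave r = -0.91 (permutation test, adjusted p = 0.002), rho = -0.80 (permutation test, adjusted p = 0.0113) and r = -0.75 without the 2, and Gad1 gave r = -0.66 (permutation test, adjusted p = 0.0036), rho = -0.84 (permutation test, adjusted p = 0.00808) and r = -0.51 without the 2. Gfap gave r = -0.61 (permutation test, adjusted p = 0.0466), rho = -0.62 (permutation test, adjusted p = 0.0617) and r = -0.75 without the 2. The adjusted p of r for Gfap was 0.0769 (permutation test) under median-of-ratios scaling and 0.107 (permutation test) within the all-digit format. Chat gave r = 0.67 (permutation test, adjusted p = 0.0339) and rho = 0.59 (permutation test, adjusted p = 0.0678), but r was 0.23 without the 2 libraries, on which the relation rests, and Chat was near 1 CPM in group A. For Mbp no relation was found, with r = -0.33 (permutation test, adjusted p = 0.32), rho = -0.29 (permutation test, adjusted p = 0.388) and r = -0.31 without the 2. Within the 10 all-digit libraries r was 0.94 for Slc18a2, 0.88 for En1, 0.81 for Slc17a6, -0.98 for Tph2, -0.68 for Gad1, 0.85 for Chat and -0.33 for Mbp.

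Single libraries carried their own signatures. All-digit libraries 4 and 63 had Tph2 at 57.4 and 57.5 CPM and Slc6a4, the serotonin transporter, at 26.4 and 37.6 CPM, where the other 9 had at most 17.2 and 7.66 CPM. Fev, a factor of serotonin neurons, was highest in the same pair at 1.69 and 2.37 CPM. Pax7 reached 146 CPM in library 63 and only 2.34 CPM in library 53, which also had the lowest Gad1 at 77.3 CPM; a low Pax7 thus stood beside a low Gad1. E21 library 70 stood out for Spp1 at 788 CPM against at most 177 in the others, for Nefh at 1898 against at most 663, and for C1ql2, a secreted C1q-like synaptic protein, at 168 against at most 53.7. C1ql2 was called at 1.29, and without that library at 0.99 it was not. The same library had the lowest Igf2, 34.4 CPM, and the lowest Gfap, 804 CPM, whereas library 56 had the highest of both at 1152 and 3615 CPM. Without libraries 4 and 63, a setting added once the levels had been seen, 1061 genes were called higher and 1110 lower.

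**Figure D5:**
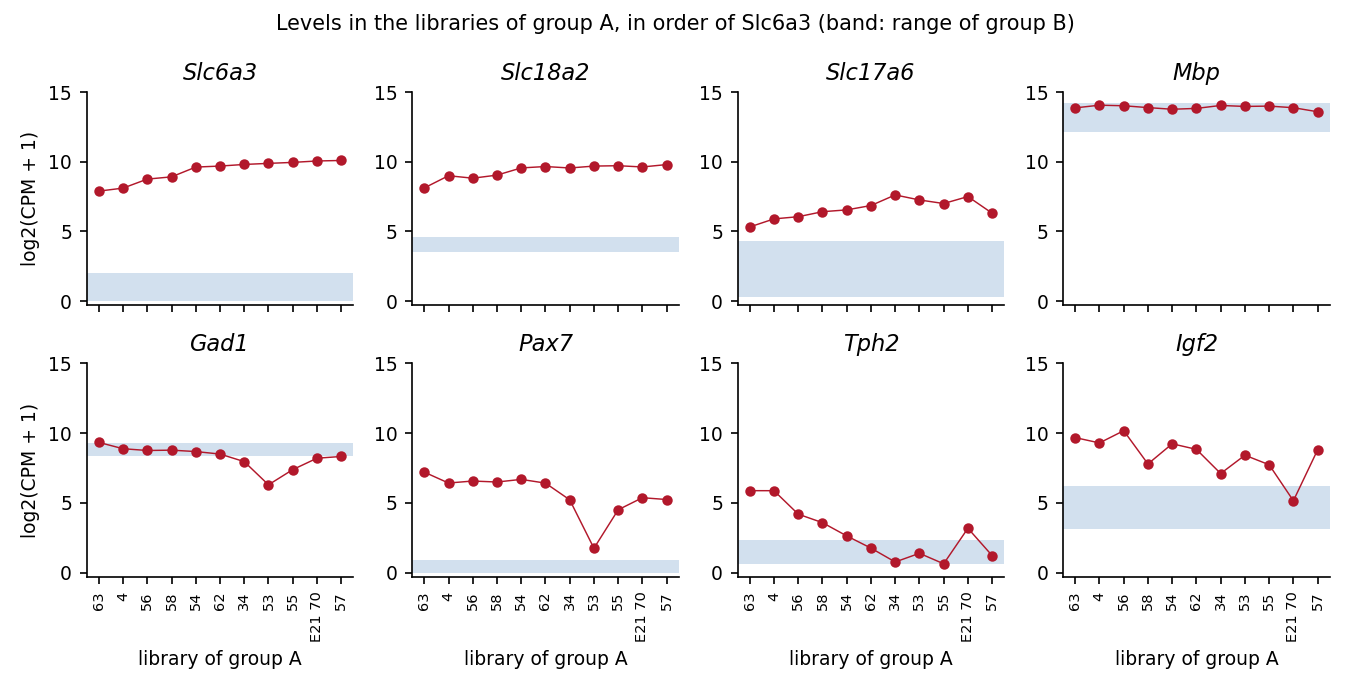
Level of 8 genes as log2(CPM + 1) in each library of group A, ordered by Slc6a3 from left to right, with the range of group B as a band. Slc18a2 and Slc17a6 are higher and Tph2 lower toward the right, Mbp varies little, and library 53 has the lowest Gad1 and Pax7; E21 70 is the library with an E21 identifier and all others have all-digit identifiers.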

How the data were processed

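PolyA RNA libraries of 192 rats are labelled, and the deposited table holds those not noted as removed. The authors deposited log2 values for 38354 genes, made with kallisto 0.48 per the submitters' processing notes. From the values, these are log2 of an expected count plus 1, not scaled to depth; annotation, genome build and transcript summing: not given in the sources used here. Library strand is not stated either, so genes that overlap on opposite strands cannot be told apart. Totals ran from 14.6 to 61.2 M expected counts (M standing for 1000000), so depth limits genes near 1 CPM most.

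Values were turned back to counts, scaled to 1000000 per library and compared as log2(CPM + 1) with limma 3.58.1 in R 4.3.3, with its trend option, over groups A and B alone, and p-values were adjusted by Benjamini-Hochberg. Genes entered when their mean over all libraries reached 1 CPM. Permutation tests used 100000 resamples (scipy 1.17.1, Python 3.11.15), and label formats were compared by Fisher's exact test. The fit was tested on simulated data. The groups, the 40 gene lists and the markers were chosen with earlier results of these data known. Genes named are the 20 with the largest differences in each direction at 10 CPM or more in the higher group, up to 6 of each list, the 15 of highest SD in group A, and others chosen after their values were seen, such as Pou4f1, Slc6a4, Cckar and Fos. Some genes of these sets are not reported here. Symbols were matched to RefSeq (GRCr8) for 38278 genes, and 27457 genes had an upstream sequence there, with the deposited position at the RefSeq start in 70.4%. Alternatives were another scaling, quantile normalization, a pseudocount of 0.1, other filters, the all-digit format alone, all libraries outside group A as the comparison, and each group A library left out. P-values measure the spread between rats as labelled.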

Additional observations from a re-analysis of the deposited data

Results flagged for a closer look

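The library that entered neither group, all-digit library 3, was outside every comparison and held a strong signal of its own. Its Slc17a7, which encodes the cortical vesicular transporter VGLUT1, was at 1993 CPM, above the highest library of group B at 1148 CPM and of group A at 92.9 CPM. The cortical factors Tbr1 and Neurod2 were at 174 and 103 CPM, above the highest group B values of 104 and 42.4. Its Slc6a3 and En1 were at 0.252 and 0.0842 CPM, within the range of group B. Drd1 was at 20.0 CPM and Ppp1r1b at 99.4 CPM, the latter below every library of group B. This is a value of 1 library with no replicate.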

How the results depend on the processing

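The counts of genes called kept within 1.5 times of 1102 higher and 1090 lower under every alternative but 1: at a mean of at least 10 CPM, 462 genes were called higher and 821 lower, and 305 lay above without overlap and 618 below, fewer genes being tested. Leaving out each library of group A in turn gave 1079 to 1117 higher and 1062 to 1111 lower. Other settings gave 1059 and 1124 on median-of-ratios size factors, 1027 and 1152 after quantile normalization, 1340 and 1333 with a pseudocount of 0.1, and 1037 and 1122 within the all-digit format. Over 172 genes and 19 settings, 3190 values kept direction and side of the limits, 23 lost their call, 3 gained one (Fos at -1.04 after quantile normalization, Mbp at 1.05 within the all-digit format and at 1.01 without library 57) and 1 reversed. The reversal was Mbp at -0.35 under quantile normalization. The relation of Gfap with Slc6a3 lost its call at r = -0.57 under median-of-ratios scaling and at r = -0.57 within the all-digit format (permutation tests); the cause was not tested. Calls of Tcf7l2, Tph2, Nwd2, Grik1, C1ql2, Hba-a1, Hbb and Hbb-b1 lay near the limit and were lost in 1 or more settings. Genes confined to group A below the filter of 1 CPM enter no count. No paired analysis was possible because the labels give the groups no shared replicate numbers.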

Other observations

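Among genes with the highest SD over group A, several took separated levels in group B too. Fam111a, a replication-associated protease, was above 3 CPM in 7 of 11 libraries of group A (at 10.8 CPM or more, the others at 0.533 or less) and in 61 of 147 of group B. Hbb-b2, a beta-globin gene, was above 2 CPM in 5 of 11 and in 76 of 147 libraries, with no group A library between 0.00292 and 16.4 CPM. Xist, the non-coding RNA of X inactivation, was above 50 CPM in 7 of 11 and in 76 of 147 libraries, and in group A the Y-linked Ddx3y, an RNA helicase, was at 58.6 CPM or more in the 4 without Xist and at 0.127 or less in the 7 with it. The 11 libraries thus came from rats with different levels of all 3 genes. The fits held no term for sex.

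Also among the most variable genes of group A was Epyc, the proteoglycan epiphycan, at 1.4 to 109 CPM (median 17.2) against 0.176 to 4.82 CPM (median 1.42) in group B. Epyc was highest in 63 and 4 at 109 and 106 CPM. Rn28s, a ribosomal RNA, ran from 404 to 8632 CPM in group A and from 300.2 to 2335 CPM in group B.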
